A study of Arabidopsis thaliana with 8 samples.

Results

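GRF factors (GROWTH-REGULATING FACTORs) and their GIF coactivators (GRF-INTERACTING FACTORs) were followed in Arabidopsis thaliana root cells sorted by a marker of the stem cell niche. The 10 genes were chosen by name from the 33201 rows of the authors' deposited gene table, and each had a row of its own. They are 3 GIF genes (GIF1, also called AN3, GIF2 and GIF3) and 7 GRF genes (GRF1, GRF2, GRF3, GRF4, GRF5, GRF8 and GRF9). The cells came from Col-0 seedling roots, protoplasted after 5 days of growth and sorted for a WOX5::GFP reporter of the quiescent center (QC), a small group of slowly dividing cells that keeps the surrounding root stem cells undifferentiated. The wild type and the pan mutant were each sequenced as 4 libraries, all carrying the reporter; PAN (PERIANTHIA) encodes a bZIP transcription factor, and the labels do not name the allele. The comparison asks how these genes stand in cells sorted by the QC marker when PAN is mutated.

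GRF proteins bind DNA through a conserved WRC domain and bind a GIF protein through a second conserved domain, QLQ. GIF proteins have no DNA-binding domain of their own and are related to the human coactivator SS18; in Arabidopsis, GIF1 has been found with SWI/SNF chromatin remodelling complexes. The module is known for promoting cell proliferation in leaves and roots, and the microRNA miR396 cuts the transcripts of most GRF genes but not those of GIF genes.

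The deposited values are 1 pooled FPKM per genotype and gene, that is, fragment counts normalized for transcript length and sequencing depth. They carry no replicate error, the fragments per library are not known, and the authors' q-value (called when under 0.05) alone reflects the spread between libraries. The labels were checked first. For PAN (AT1G68640), whose row has the same locus bounds as that of its neighbor AT1G68630, the authors' deposited table lists 19.996 FPKM for wild type against 0.265 FPKM for the mutant (q = 0.0386). For the QC marker gene WOX5, the authors' deposited table lists 205 FPKM against 8.27 FPKM in that order (q = 0.00116). Of 8 stem cell niche genes 8 fell, with a summed level of 698 FPKM in wild type against 70.5 FPKM in the mutant. All 5 root cap markers fell as well, with sums of 576 and 208 FPKM, and of 6 epidermis and root hair markers 2 rose and none fell, with sums of 239 and 720 FPKM. Over all tested genes, 9.83% were called lower and 8.01% higher. No marker of these 3 lists was listed at 0. In such sorted samples, fewer cells of a type and less RNA per cell cannot be told apart, and the part of these shifts in the results that follow was not tested.

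Among the members, the coactivator genes GIF1 and GIF3 fell. The third coactivator gene, GIF2, was not called, and no GRF gene was called in either direction. Of the 8 members that the authors tested, 2 (25.0%) were thus called lower and 0 higher. Over all 19789 tested genes, 9.83% were called lower and 8.01% higher, 17.8% in all. With so few members these shares are a description of the group and were given no test of their own.

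GIF1 (AT5G28640, TAIR10 chr5:10647570-10649892, minus strand) encodes the coactivator whose loss gives narrow leaves with fewer cells. Its level was 86.2 FPKM in the wild type libraries and 5.79 FPKM in the mutant libraries, according to the authors' deposited table. This is a log2 change of -3.90, or 14.9-fold lower in pan, with q = 0.00116 by the authors' deposited table. That q-value belongs to the smallest p-value in the table, 5e-05, so GIF1 cannot be ranked against the other genes that share it. Its wild type level exceeded that of 90.9% of tested genes, and its pan level exceeded that of 40.9%. In all, 1.55% of the 19590 tested genes with a finite change had a lower log2 change than GIF1.

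GIF3 (AT4G00850, TAIR10 chr4:357551-359194, plus strand), a second coactivator that acts redundantly with GIF1, was the other member that fell. Wild type cells had 8.53 FPKM and mutant cells 0.770 FPKM of it by the authors' deposited table, which gives a log2 change of -3.47 (11.1-fold lower, q = 0.0260). On the log2(FPKM + 1) scale the difference was -2.43 for GIF3 and -3.68 for GIF1, because the pan level of GIF3 lies under 1 FPKM. No annotated gene overlaps the loci of GIF1 or GIF3.

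GIF2 (AT1G01160, TAIR10 chr1:72339-74737, plus strand) was the coactivator with the smallest difference. By the authors' deposited table, wild type had 31.1 FPKM and the mutant 18.5 FPKM, and the log2 change of -0.75 did not pass (q = 0.318). The row of GIF2 shares its locus with AT1G01170, on the opposite strand, which was also not called (3.72 FPKM against 2.25 FPKM by the authors' deposited table). By the RefSeq annotation the bounds of the 2 genes share 166 bases. Since the kits are not stated to keep strand, fragments of such overlapping pairs may not be separable. Whether GIF2 differed less than GIF1 between the genotypes cannot be tested from pooled values.

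**Figure D1:**
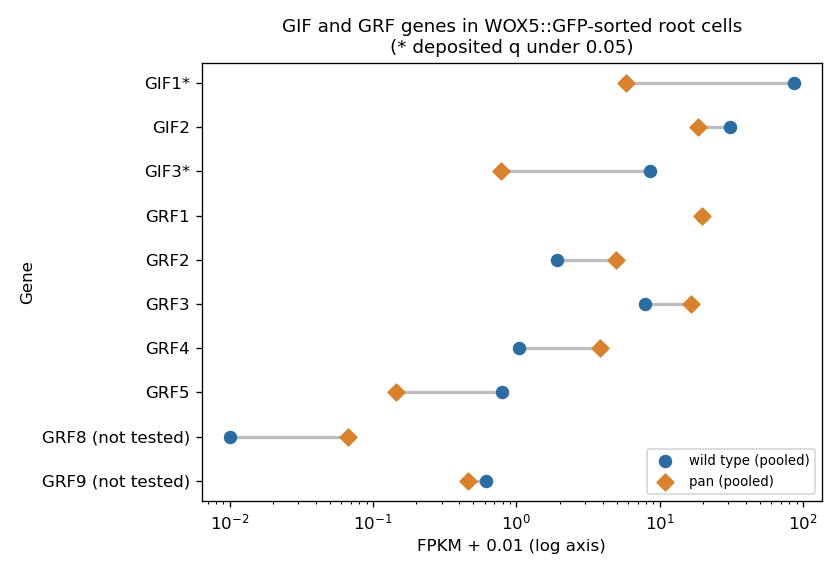
Pooled FPKM of each member in wild type (circles) and pan (diamonds), on a log axis after adding 0.01 FPKM; stars mark genes with a deposited q-value under 0.05. GIF1 and GIF3 lie far to the left in pan, GRF1 does not move visibly, and GRF8 is listed at 0 in wild type.

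The makeup of the GIF transcripts was different in the sorted cells of the mutant. Summed over the 3 genes, GIF transcripts reached 126 FPKM in wild type but 25.1 FPKM in the mutant, 5.01-fold lower. GIF1 made up 68.5% of that sum in wild type and 23.1% in pan. GIF2 made up 24.7% in wild type and 73.9% in pan, so that the order of the 2 most abundant coactivators was exchanged. In wild type the level of GIF1 was 2.77 times that of GIF2, and in pan the level of GIF2 was 3.20 times that of GIF1. GIF3 contributed 6.78% in wild type and 3.07% in pan. These shares compare levels per transcript length and have no error of their own.

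None of the 5 tested GRF transcription factor genes was called. The summed level of the 7 GRF genes was 31.9 FPKM in wild type against 45.6 FPKM in the mutant, a ratio of 1.43 that rests on genes without a call. Together with the sums above, the level of GIF transcripts was 3.95 times that of GRF transcripts in wild type and 0.550 times in pan. Of the 5 GRF genes tested, 4 had a log2 change above 0 and 1 below 0. The median of these 5 log2 changes was 1.06, against -0.17 for every tested gene whose change is finite, and for the 3 GIF genes it was -3.47.

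**Figure D2:**
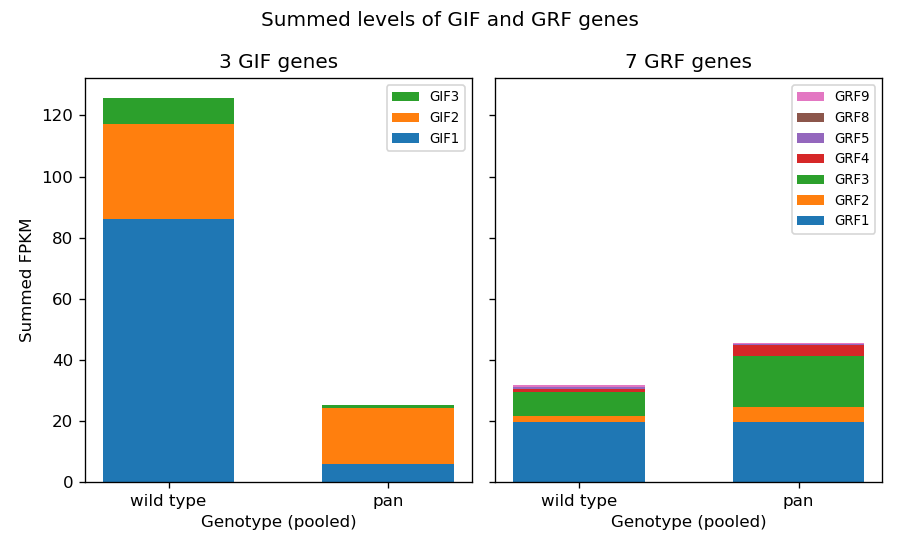
Stacked bars of FPKM for the 3 GIF genes (left) and the 7 GRF genes (right) in each genotype, pooled over libraries and without error. The GIF sum is 126 FPKM for wild type against 25.1 FPKM for the mutant, mostly through GIF1, while the GRF sum is 31.9 and 45.6 FPKM.

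Most GRF transcripts carry a stretch complementary to miR396, and these sequences divide the members into groups that the expression values did not define. The 2 precursor genes of Arabidopsis give mature miRNAs that share one seed (bases 2 to 8, in capitals) and differ in their last base. They lie at chr2:4142443-4142463 (minus strand) and chr5:13611808-13611828 (plus strand) of the RefSeq assembly TAIR10.1.
miR396a-5p: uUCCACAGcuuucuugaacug
miR396b-5p: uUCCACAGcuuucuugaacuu
In the spliced transcripts of 6 GRF members, a stretch of 22 bases pairs with miR396a at 19 or 20 of its 21 bases and leaves 1 transcript base unpaired between positions 7 and 8 of the miRNA, counted from its 5′ end. The stretches are shown as DNA because they set these 6 genes apart from GRF5; capitals mark bases paired with miR396a, and G:U pairs were not counted as paired.
GRF1: tcGTTCAAGAAAGCcTGTGGAA
GRF2: tcGTTCAAGAAAGCcTGTGGAA
GRF3: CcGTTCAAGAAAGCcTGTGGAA
GRF4: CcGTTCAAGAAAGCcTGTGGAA
GRF8: tcGTTCAAGAAAGCaTGTGGAA
GRF9: acGTTCAAGAAAGCtTGTGGAA
Against miR396a, GRF3 and GRF4 have 20 paired bases and the others 19, whereas against miR396b, which differs in its last base, GRF9 has 20 and the others 19. All 6 stretches lie in coding exons, for example at chr2:9729944-9729965 (plus strand) in GRF1 and chr2:15271745-15271766 (minus strand) in GRF3. Where 2 identical neighboring bases could be the unpaired one, it was set between these positions. Among 27438 protein-coding genes, 7 (0.0255%) had a stretch with at most 2 mismatched bases, and all 7 are GRF genes. They are these 6 and GRF7. GRF5 had no such stretch, its best one having 6 mismatched bases, and neither did any GIF gene, with 7, 7 and 4 in GIF1, GIF2 and GIF3.

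GRF1 (AT2G22840, TAIR10 chr2:9728756-9733400, plus strand) was the most abundant GRF gene in both genotypes. Wild type and mutant cells had 19.6 and 19.8 FPKM of it by the authors' deposited table, and the log2 change was 0.01 (q = 0.991). In pan it was the most abundant of all 10 members, above GIF2. Its row shares a locus with bZIP6 on the opposite strand, for which the authors' deposited table lists 1.77 and 1.14 FPKM. By the RefSeq annotation the gene bounds share 23 bases.

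GRF3 (AT2G36400, TAIR10 chr2:15264237-15272823, minus strand), one of the miR396-targeted GRFs, came next in level. Its log2 change of 1.06, from 7.89 FPKM in wild type to 16.5 FPKM in the mutant, was not called (q = 0.554, the authors' deposited table). GRF3 shares its locus in the table with SBE2.1, a starch branching enzyme gene on the opposite strand. By the authors' deposited table, SBE2.1 fell from 45.8 to 12.4 FPKM (q = 0.00340). The level of GRF3 is therefore uncertain where fragments of the pair overlap; by the RefSeq annotation the gene bounds share 5 bases. GRF1 and GRF3 together held 86.4% of the GRF sum in wild type and 79.5% in pan.

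GRF2 (AT4G37740) and GRF4 (AT3G52910), factors of leaf growth with no overlapping gene, were low in both genotypes. For GRF2 the authors' deposited table has 1.91 FPKM in wild type against 4.91 FPKM in the mutant (log2 change 1.36, q = 0.261). For GRF4 the authors' deposited table has 1.03 FPKM against 3.79 FPKM (log2 change 1.89, q = 0.270). Thus each tested GRF gene with the miR396 stretch had a log2 change between 0.01 and 1.89, and none of these 4 was called. GRF4 lay above 92.7% of tested genes by its log2 change and was still not called.

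GRF5 (AT3G13960) promotes cell proliferation in leaves and is the tested GRF gene without the miR396 stretch. Among the 5 tested GRF genes, it had the one log2 change below 0. Its levels by the authors' deposited table were 0.786 FPKM for wild type and 0.135 FPKM for the mutant (log2 change -2.54, q = 0.277). On the log2(FPKM + 1) scale this was -0.65. Both levels were low: 92.4% of tested genes stood at or above it in wild type. The difference between GRF5 and the other GRF genes was not tested.

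GRF8 (AT4G24150) and GRF9 (AT2G45480) were left untested by the authors. In wild type GRF8 is listed at 0, and in the mutant at 0.0570 FPKM, by the authors' deposited table. GRF9, which is known to restrain leaf growth, had 0.601 FPKM in wild type against 0.449 FPKM in the mutant by the authors' deposited table. Its log2 change of -0.42 lay below 0, although GRF9 carries the miR396 stretch. By the RefSeq annotation, its bounds share 126 bases with AUR3 on the opposite strand, listed at 7.84 and 2.44 FPKM. The level of GRF9 is therefore uncertain where fragments of the pair overlap. The remaining GRF genes of the genome, GRF6 and GRF7, were also untested, and the authors' deposited table lists wild type and mutant levels of 0.539 and 0.197 FPKM for GRF6 and of 0 and 0.0180 FPKM for GRF7. GRF transcripts in the sorted cells were thus mostly those of GRF1 and GRF3 in both genotypes.

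Ordered by level, wild type cells held GIF1, GIF2, GRF1, GIF3, GRF3, GRF2, GRF4, GRF5, GRF9 and GRF8, from high to low FPKM. In pan the order was GRF1, GIF2, GRF3, GIF1, GRF2, GRF4, GIF3, GRF9, GRF5 and GRF8. Whether neighbors in these orders differ cannot be said, since no spread between libraries is given.

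**Figure D3:**
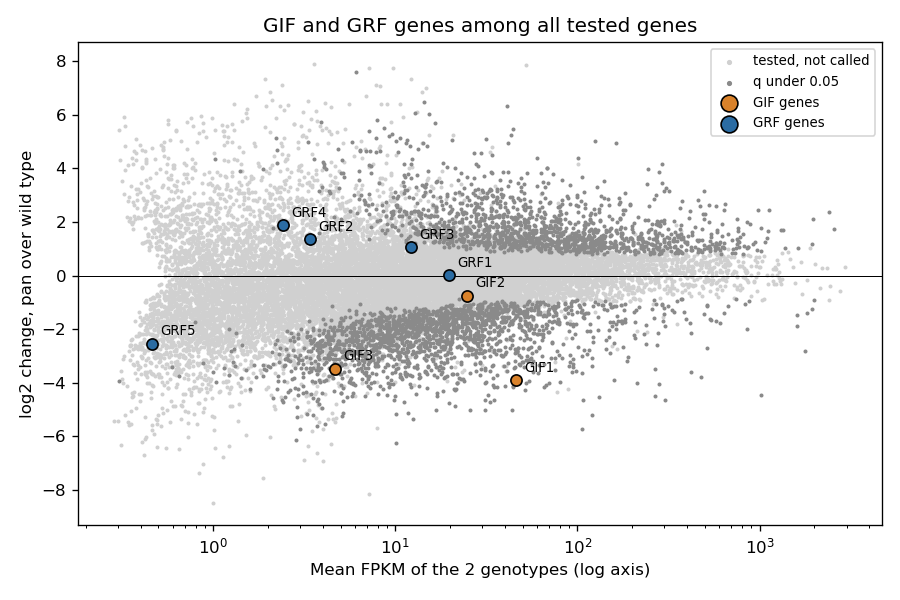
Log2 change in pan over wild type (vertical axis) against the mean FPKM of both genotypes (log axis) for all tested genes with a finite change; dark gray points have q under 0.05, and the 8 tested members are named. GIF1 (-3.90) and GIF3 (-3.47) lie among the called genes at the lower edge of the cloud, and the GRF genes lie in the uncalled part.

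The genes that make miR396 could be read only in part. The rows of MIR396A and MIR396B measure precursor RNA, not the mature miRNA, and the authors tested neither. The authors' deposited table lists MIR396A at 0 for wild type and 1.09 FPKM for the mutant, and MIR396B at 5.31 FPKM against 2.66 FPKM. Of 8 TCP genes of the class that includes TCP4, an activator of MIR396 genes in leaves, 2 were tested and neither was called. Over all tested genes, 17.8% were called. TCP13 had the larger difference, from 0.704 FPKM in wild type to 0.0695 FPKM in the mutant by the authors' deposited table (q = 0.495).

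Subunits of the SWI/SNF chromatin remodelling complexes, with which GIF1 works, fell in part. Of the 14 genes, all tested, 4 fell, 0 rose and 13 had a log2 change below 0. The background is 9.83% called lower, and the median log2 change of the list was -0.93. SWI3A, a core scaffold subunit, fell 4.46-fold, from 32.6 to 7.31 FPKM, by the authors' deposited table (q = 0.00340). BSH, the SNF5-type subunit, fell from 31.1 to 8.90 FPKM (3.50-fold, q = 0.0334) and SWP73B from 53.2 to 18.6 FPKM (2.86-fold, q = 0.00624), again by the authors' deposited table. The fourth was SWI3C, with 54.6 FPKM against 25.2 FPKM by the authors' deposited table (q = 0.0213). The ATPases BRM (15.5 and 8.77 FPKM, q = 0.102) and SYD (6.05 and 3.15 FPKM, q = 0.107) were not called by the authors' deposited table. SWI3C, BRM and SYD are named because of their place in the complex, after their values were seen.

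Genes that GIF1 or GRF proteins are reported to bind or regulate in Arabidopsis did not move one way. Of 7 tested, PLT1 and SCR fell, DREB2A rose and 4 were not called, beside 9.83% lower and 8.01% higher over all tested genes. With 7 genes these counts are a description, and the median log2 change was -0.49. The list was not divided by the direction of regulation reported for each gene. PLT1, a PLETHORA factor of root stem cells, fell from 170 to 19.9 FPKM (8.52-fold), and SCR, needed for QC identity, from 29.9 to 6.08 FPKM (4.91-fold), each with q = 0.00116 in the authors' deposited table. DREB2A, a stress-response factor that GRF7 is known to repress, rose 2.04-fold, from 490 to 998 FPKM (q = 0.0129, the authors' deposited table). PLT1 and SCR belong to the niche list as well, in which every gene fell.

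Mitotic genes, which the module is known to promote, fell for the larger part. Among 14 tested genes 8 fell and 0 rose, beside backgrounds of 9.83% lower and 8.01% higher. Each of the 14 log2 changes lay below 0, with a median of -2.15. The authors' deposited table gave log2 changes of -3.40 for the cyclin CYCB2;3, -3.01 for CYCA1;1 and -2.80 for CYCB1;4. The markers WOX5 and AGL42 of the QC and BBM of the stem cells fell alongside, with log2 changes of -4.63, -3.61 and -4.14 in the authors' deposited table. Which of these lists GIF1 and GIF3 move with was not tested, and cannot be from a single pooled pair of values.

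**Figure D4:**
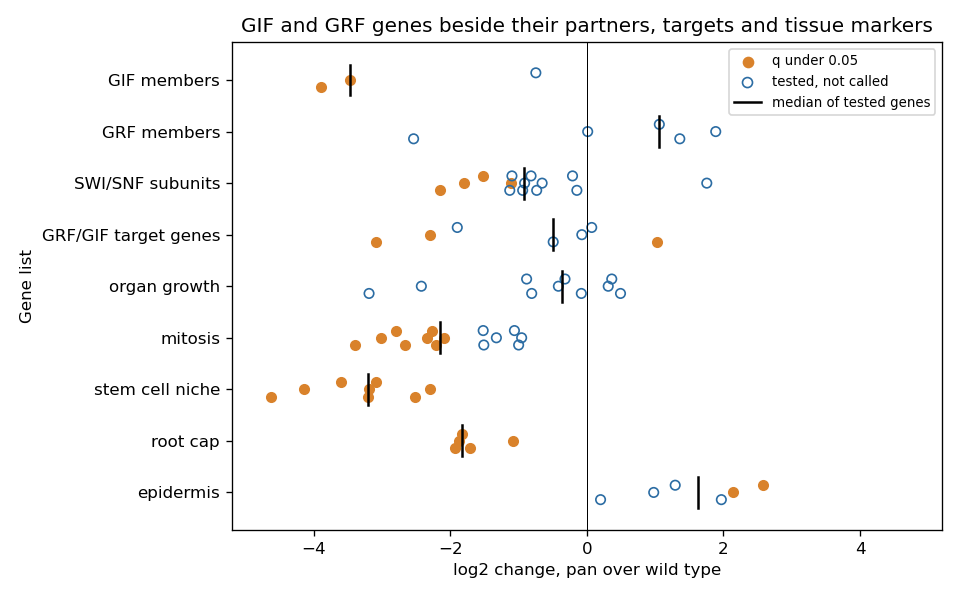
Log2 change in pan over wild type for each tested gene (points, filled orange where q is under 0.05, open where not) in the GIF and GRF members and 7 gene lists; vertical bars are medians of tested genes. The GIF median is -3.47, the stem cell niche median is -3.20, the GRF median is 1.06, and the epidermis list lies above 0.

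The 3 tested genes whose levels in both genotypes were closest to those of GIF1, by distance on the log2(FPKM + 1) scale over 19519 rows, were AT1G53070, AT3G44220 and RGF4. RGF4, one of the root meristem growth factor peptide genes, had 83.95 FPKM in wild type against 4.90 FPKM in the mutant by the authors' deposited table. This likeness rests on 2 pooled values per gene.

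In the 250 bases before the annotated gene start, no member held TGACG, the core bound by TGA-class bZIP factors, on either strand, while 18.6% of 27444 protein-coding genes did. TGTCAG, the core of a motif bound by GRF proteins, was found before 1 member, GRF8, and before 5.30% of those genes. With no TGACG in the windows of the members, the motifs could not overlap there.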

How the data were processed

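RNA was taken from WOX5::GFP-sorted cells of 4 wild type and 4 pan mutant samples; per the labels' protocols, cDNA was amplified with a low input kit. The tools named, per the submitters' processing notes, are Cuffdiff, Cufflinks (2.1.1) and TopHat2 (2.0.13), with genome TAIR10 and no settings. The authors deposited pooled FPKM per genotype, log2 changes without a pseudocount, a test score that was not used, and p-values with q-values. The table has 33201 rows: 19789 tested, 13403 not tested and 9 with too many fragments. Benjamini-Hochberg adjustment of the deposited p-values was recomputed with a largest difference of 5.25e-07 from the deposited q-values. The authors pooled the libraries, so the deposited comparison replaces any own test, and depth per library is unknown.

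Members and lists were chosen with earlier results of these data known. Named are all members, PAN, WOX5, both MIR396 genes and the 3 genes most like GIF1. Per list, up to 3 called genes with the largest change are named, or 1 tested gene where none was called. This was not done for the root cap and epidermis markers, which are given as counts and sums only. SWI3C, BRM, SYD, GRF6, GRF7, ANT, RHL1, ACHT5 and genes sharing or overlapping the locus of a member or PAN fall outside the rule. They were chosen after their values were seen. Sums, shares, medians and motif searches used Python 3.11.15 and pandas 2.3.3. Sequences are from RefSeq TAIR10.1, 1 transcript per gene (longest coding sequence); 99.997% of 32218 matched rows overlap the same gene there. The search recovered stretches planted in simulated sequence. Protein domains were not analysed here.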

Additional observations from a re-analysis of the deposited data

How the results depend on the processing

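No paired analysis was possible because the table holds 1 pooled value per genotype; for the same reason no library could be left out. Of the 10 members, 2 were called at q under 0.05 and also at q under 0.1 or with p-values adjusted over tested genes with a mean of at least 1 FPKM. At q under 0.01 the count was 1 (GIF1), and it was 1 with a minimum mean of 5 FPKM, which removes GIF3 (mean 4.65 FPKM). The GIF median of -3.47 was -2.43 with a pseudocount of 1 and -1.23 with 5, since a pseudocount shrinks low levels. The GRF median of 1.06, over genes without a call, was 0.97 and 0.52 with the same pseudocounts. The log2 changes of 9 members kept their sign in all 45 values over 5 alternatives (3 pseudocounts and 2 centrings). GRF8 has no finite change. Centring on all tested genes shifts every value by 0.17. With 1 and 5 as pseudocounts, the median of the stem cell niche list was -3.02 and -2.45. What depth limits cannot be given, since the fragments per library are unknown.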

Other observations

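Other regulators of organ growth, which act beside the GRF and GIF genes in leaves, were set against them. Of 12 such genes 10 were tested and none was called by the authors' Cuffdiff q-value, with a median log2 change of -0.37. Over all tested genes, 9.83% were called lower and 8.01% higher, so with 10 genes this count is only a description. At an unadjusted p under 0.05 by the authors' Cuffdiff, 3 of the 10 tested genes were lower in pan and 0 higher. The share of all tested genes at that threshold was not computed, so no reading is given to this count. BB, a ubiquitin ligase that limits organ size, had the largest difference, from 11.5 FPKM in wild type to 1.26 FPKM in the mutant by the authors' deposited table (log2 change -3.19, q = 0.0881). ANT, an AP2 factor of organ growth, was not tested, and the authors' deposited table lists it at 0 for wild type and 0.00236 FPKM for the mutant. Of the tissue markers not given above, 5 stele genes had 4 tested, of which CVP2 and ATHB8 fell and WOL rose. Of 4 endodermis and cortex genes CASP1 rose. These counts stand beside the same 9.83% lower and 8.01% higher over all tested genes.

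Outside the GRF family, 27 genes had a stretch with 3 mismatched bases to miR396a. With GRF7 they make 28 genes beyond the members, of which 21 were tested, RHL1 fell and ACHT5 rose, with a median log2 change of -0.19. Over all tested genes, 9.83% were called lower and 8.01% higher, and the median was -0.17. With 21 tested genes these values are a description and were given no test.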
